A study of Mus musculus with 36 samples.

Results

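The 10 genes described here take fatty acids from triglyceride and cholesteryl ester, pass them on inside the cell and store them again in droplets. They were chosen as a list of gene names, Lpl, Angptl4, Lipa, Pparg, Fabp4, Acsl1, Acsl3, Dgat1, Dgat2 and Plin2, and all 10 were found among the 29883 genes of the count table. Their RNA was measured in 2 kinds of mouse cell, each in 6 groups of 3 libraries, which gives 12 groups and 36 libraries. The first kind was macrophages derived from bone marrow, with no strain or allele given in the labels. The second was 1 tumour cell line, PDG-Ink4a Recurrent, from a mouse glioma model in which platelet-derived growth factor b is expressed in Nestin-positive progenitors that lack Ink4a/Arf. Each kind was grown alone (mono-culture) or with the other (co-culture) and sampled as a control (0 h), or at 6 h or 24 h after myelin debris was added. All the results are from culture, and those for tumour cells are from this line alone. The labels do not say whether 0 h cells were kept as long as treated ones, so effects of the debris and of culture time cannot be told apart.

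Lipoprotein lipase, the product of Lpl, cuts triglyceride in lipoproteins outside the cell, and Angptl4 is its secreted inhibitor. Lysosomal acid lipase, the product of Lipa, cuts cholesteryl ester and triglyceride that the cell has engulfed. The freed fatty acids are bound by carrier proteins such as Fabp4, joined to coenzyme A by Acsl1 and Acsl3, and built into triglyceride by Dgat1 and Dgat2. The triglyceride is kept in lipid droplets coated by Plin2, and fatty acids are ligands of the receptor Pparg, for which Lpl, Fabp4, Angptl4 and Plin2 are textbook targets. Macrophages that clear myelin take in much cholesterol and fatty acid and can become droplet-filled foam cells.

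Total counts per library ran from 7911378 to 15319104, with a median of 12262573. The labels do not say that the 3 libraries of a group are separate cultures or animals, so the p-values measure the spread between libraries, which may be technical. Of the 12 macrophage markers examined, the summed level was 12556 to 15827 CPM (counts scaled to the size of the library) in the 9 mono-culture macrophage libraries and 15880 to 19401 CPM in the 9 of co-culture. In the tumour line Olig1 was at 0, and Sox10, Gfap, Bcan and Ptprz1 reached at most 0.397 CPM in any library, while Pdgfra stood at 115 to 196 CPM and Cspg4 at 391 to 982 CPM. Several defining glial genes were thus at or near 0 in the line. Libraries numbered 1 stood apart from those numbered 2 and 3 in both kinds of cell, and up to 17.4% of the counts of a library numbered 1 belonged to a single transcript, CT010467.1. These are bulk libraries, in which fewer cells of a type and less RNA per cell cannot be told apart.

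Per kilobase of transcript, on 1 scale for all 36 libraries, macrophages in mono-culture at 0 h had most Lpl, at 2232 ± 489 CPM per kb (SD, n = 3). Lipa followed with 931 ± 70.7 and Plin2 with 352 ± 30.2 CPM per kb. The carrier gene Fabp4 stood at 53.2 ± 16.6 and Pparg at 30.5 ± 2.50 CPM per kb. The synthetases Acsl1 and Acsl3 stood at 19.0 ± 2.97 and 15.3 ± 1.82 CPM per kb. Dgat1, at 5.91 ± 0.43 CPM per kb, Angptl4, at 1.36 ± 0.15, and Dgat2, at 0.31 ± 0.14, were lowest. In tumour cells of the same group Plin2 led with 114 ± 9.03 CPM per kb, followed by Lipa with 43.0 ± 2.14 and Acsl3 with 28.0 ± 12.8. Lpl was at 2.70 ± 2.38 CPM per kb in these cells, with 0 in library 1. Macrophage markers were higher in libraries 2 and 3 than in library 1, as given below. Macrophages therefore had the RNA of both lipases far above that of the enzymes of triglyceride synthesis, and tumour cells had the RNA of the droplet coat above that of either lipase.

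**Figure D1:**
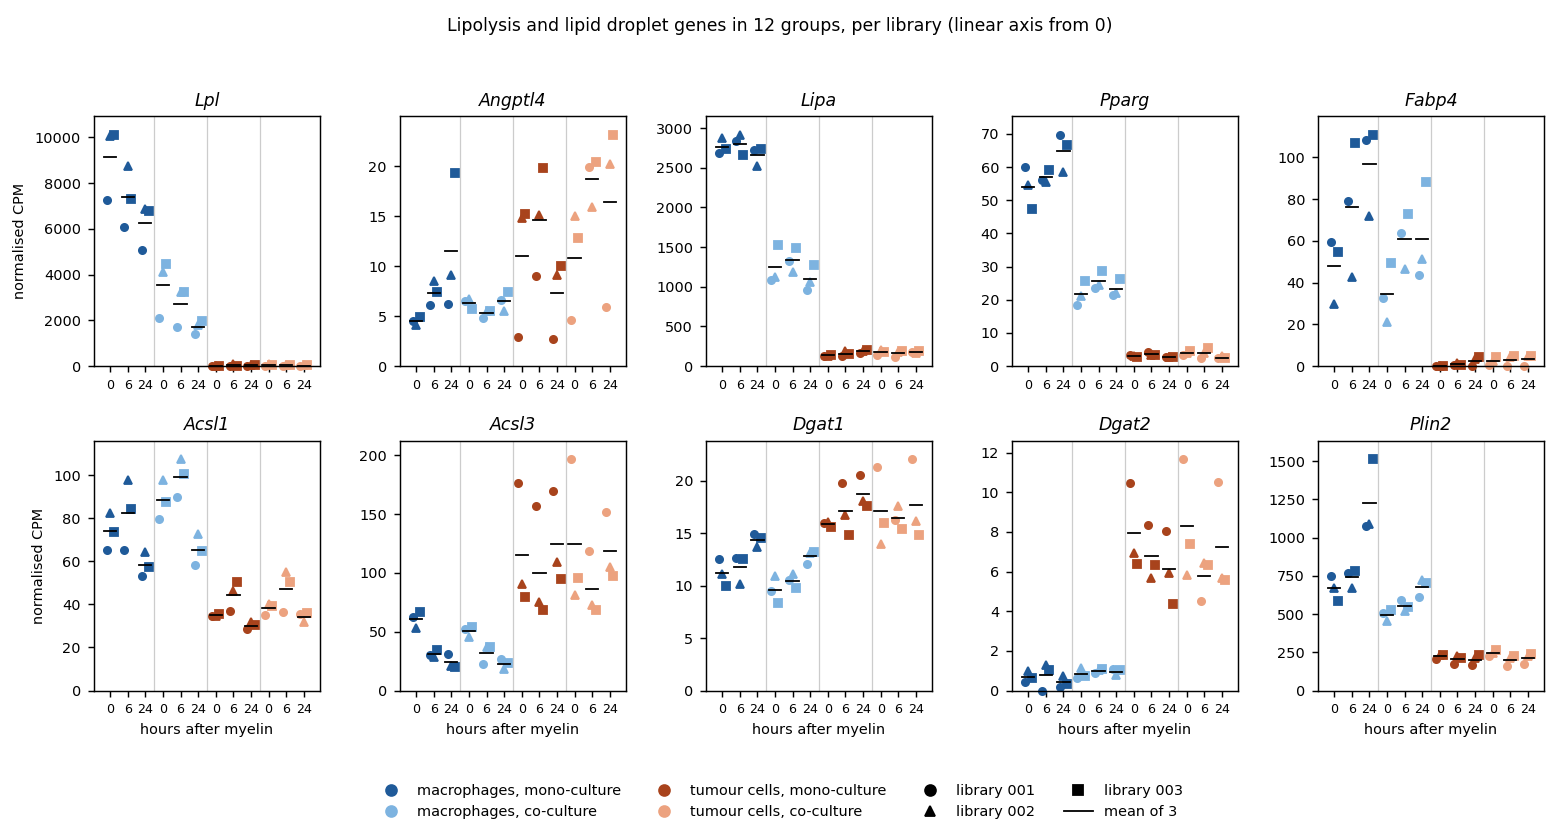
Level of each of the 10 genes in CPM, normalised within each cell type, on linear axes that start at 0, against hours after myelin in the 4 combinations of cell and culture. Symbols are single libraries (circle, triangle and square for the libraries numbered 1, 2 and 3) and bars are means of 3. Lpl, Lipa and Pparg are lower in all 9 co-cultured macrophage libraries than in all 9 of mono-culture, and Plin2 is highest in mono-culture macrophages at 24 h.

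RefSeq promoter windows (GRCm38.p6, 250 bases before to 50 after a start site) were at hand for 5 of the 10 genes, in 8 windows: Acsl3, Plin2, Lipa, Acsl1 and Pparg. Windows for Lpl, Angptl4, Fabp4, Dgat1 and Dgat2 were not used here. The stretch before 1 start of each gene is shown: Plin2 (chr4:86670058-86670309, minus strand, with 2 bases past the start), Pparg (chr6:115360894-115361143, plus strand), the second start of Acsl1 (chr8:46490716-46490965, plus strand), Acsl3 (chr1:78657575-78657824, plus strand) and Lipa (chr19:34527475-34527724, minus strand). Each was called in at least 1 comparison of macrophages below. Capitals mark the motifs found.
Plin2: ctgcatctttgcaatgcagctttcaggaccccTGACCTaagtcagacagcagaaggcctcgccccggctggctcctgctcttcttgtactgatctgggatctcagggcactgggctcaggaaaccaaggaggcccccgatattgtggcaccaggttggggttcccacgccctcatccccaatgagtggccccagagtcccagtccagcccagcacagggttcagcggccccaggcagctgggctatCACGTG
Pparg: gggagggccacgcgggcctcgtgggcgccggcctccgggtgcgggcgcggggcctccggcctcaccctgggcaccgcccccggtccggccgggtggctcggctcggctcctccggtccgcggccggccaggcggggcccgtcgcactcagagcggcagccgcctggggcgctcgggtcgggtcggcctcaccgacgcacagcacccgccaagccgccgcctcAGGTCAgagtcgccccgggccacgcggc
Acsl1: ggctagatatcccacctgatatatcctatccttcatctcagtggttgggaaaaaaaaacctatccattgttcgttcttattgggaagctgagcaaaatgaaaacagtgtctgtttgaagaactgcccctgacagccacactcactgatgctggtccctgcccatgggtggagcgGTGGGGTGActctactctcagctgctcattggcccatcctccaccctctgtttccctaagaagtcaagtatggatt
Acsl3: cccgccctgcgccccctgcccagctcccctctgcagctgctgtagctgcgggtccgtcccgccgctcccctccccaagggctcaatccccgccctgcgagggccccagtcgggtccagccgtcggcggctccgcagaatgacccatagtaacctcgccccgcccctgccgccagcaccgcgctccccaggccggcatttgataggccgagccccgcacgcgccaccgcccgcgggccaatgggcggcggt
Lipa: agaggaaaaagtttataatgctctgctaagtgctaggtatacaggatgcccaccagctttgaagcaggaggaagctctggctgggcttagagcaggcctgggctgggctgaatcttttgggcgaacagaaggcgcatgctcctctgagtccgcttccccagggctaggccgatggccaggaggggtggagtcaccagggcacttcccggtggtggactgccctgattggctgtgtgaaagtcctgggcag

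The motifs were searched on both strands. The hexamer AGGTCA, the core of nuclear receptor sites, was in 3 of the 8 windows, in Plin2 at position -218 on the other strand and in 2 Pparg windows, at -28 in the stretch shown. It is in 16.3% of all 32851 promoter windows. The E-box CACGTG, bound by factors such as TFEB, was in 1 window, at -4 in Plin2 across the start site, against 7.15% of all windows. A sterol response element, searched as TCACNCCAC, was in 1 window, at -76 in Acsl1 on the other strand, against 1.24% of all windows. The direct repeats of the hexamer spaced by 1 base (DR1), bound by Pparg with its partner, and by 4 bases (DR4) were in 0 of the 8 windows, against 0.0396% and 0.0152% of all windows. Each such repeat contains the hexamer. No searched motif was in the Acsl3 or Lipa stretch. A match describes the letters in the window, not a bound site.

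Co-cultured macrophages had less RNA of both lipases and of Pparg than macrophages kept alone, at each of the 3 times. By group means Lpl was 2.57 to 3.61 times lower, Lipa 2.10 to 2.43 times and Pparg 2.23 to 2.80 times. Plin2 was lower in co-culture at each time too, but was called lower in edgeR only at 0 h and 24 h. Calls are those of the edgeR quasi-likelihood test with a Benjamini-Hochberg adjusted p under 0.05. By it 4 of the 10 genes were lower in co-culture at 0 h, where 13.7% of all tested genes were called in either direction and 6.02% were lower. At 6 h 3 were lower (9.94% of all genes called, 4.12% lower), and at 24 h 5 were lower (28% called, 13.7% lower). None of the 10 was called higher in co-culture at any of the 3 times in this test. The median log2 difference over the 10 genes was -0.35, -0.37 and -0.75 at the successive times, while over all tested genes it was -0.02, -0.03 and -0.03.

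Lpl stood at 7265, 10074 and 10109.5 CPM in mono-culture libraries 1, 2 and 3 at 0 h, and at 2103, 4097 and 4464 CPM in co-culture. At 6 h the mono-culture libraries held 6091, 8743 and 7299 CPM and those of co-culture 1723, 3232 and 3234 CPM. At 24 h they held 5070, 6876 and 6776 CPM, and 1390, 1802 and 1993 CPM. The lowest mono-culture library of any time was above the highest of co-culture, and library 1 was the lowest of its group in all 6 groups. The log2 differences were -1.36 ± 0.28 (SE) at 0 h (edgeR adjusted p 0.00472), -1.43 ± 0.28 at 6 h (adjusted p 0.00416) and -1.85 ± 0.29 at 24 h (adjusted p 0.00028).

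Lipa, the lysosomal lipase, varied little in mono-culture, at 2683, 2878 and 2734 CPM in the libraries of 0 h, 2837, 2914 and 2656 CPM at 6 h and 2727, 2526 and 2743 CPM at 24 h. Co-culture libraries held 1087, 1129 and 1528 CPM at 0 h, 1322, 1189 and 1484 CPM at 6 h and 963, 1055 and 1269 CPM at 24 h. The 2 cultures were thus far apart, with library 3 the highest of co-culture at each time. The log2 difference was -1.15 ± 0.13 at 0 h (edgeR adjusted p 3.43e-05), -1.07 ± 0.13 at 6 h (adjusted p 0.000103) and -1.28 ± 0.13 at 24 h (adjusted p 8.31e-06).

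Pparg, the lipid-sensing receptor, had 60.0, 54.7 and 47.5 CPM in mono-culture at 0 h and 18.4, 21.2 and 25.6 CPM in co-culture. At 6 h it had 56.0, 55.4 and 59.2 CPM against 23.5, 24.3 and 28.7 CPM, and at 24 h 69.7, 58.4 and 66.7 CPM against 21.4, 22.0 and 26.2 CPM. No co-culture library reached the lowest of mono-culture at any time. The differences were -1.31 ± 0.13 (edgeR adjusted p 8.74e-06), -1.15 ± 0.12 (adjusted p 3.87e-05) and -1.48 ± 0.13 (adjusted p 1.88e-06) on the log2 scale at 0, 6 and 24 h. An antisense gene, Gm44079, overlaps Pparg, and the sources used here do not say whether counting used the strand. The calls of Lpl, Lipa and Pparg held in each of the 14 alternatives run at each time, with adjusted p of at most 0.0229.

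Plin2, the droplet coat gene, had 750, 670 and 585 CPM in mono-culture at 0 h and 506, 454 and 527 CPM in co-culture, and the groups did not overlap. At 6 h it had 771, 667 and 782 CPM against 594, 518 and 545 CPM. At 24 h it had 1073, 1086 and 1511 CPM against 614, 722 and 701 CPM, the widest gap of the 3 times. The log2 difference was -0.43 ± 0.13 at 0 h (edgeR adjusted p 0.0386), -0.42 ± 0.13 at 6 h (adjusted p 0.052, not called) and -0.85 ± 0.13 at 24 h (adjusted p 0.000223). The call at 0 h was lost when any 1 of 5 single libraries was left out, with adjusted p of 0.0543 to 0.162: all except mono-culture library 3. In libraries 2 and 3 alone the edgeR adjusted p at 0 h was 0.116. It was 0.0512 with CT010467.1 and Lars2 left out and 0.0506 in the compared groups alone. At 6 h DESeq2 called the difference (-0.40, adjusted p 0.0235).

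Angptl4, the lipase inhibitor, was called lower in co-culture at 24 h, by a log2 difference of -0.83 ± 0.28 (edgeR adjusted p 0.0393). The mono-culture libraries then held 6.22, 9.09 and 19.3 CPM and those of co-culture 6.59, 5.56 and 7.37 CPM, so the groups overlapped. Without mono-culture library 3 the difference was -0.24 with an adjusted p of 0.413, and without any 1 of the co-culture libraries the adjusted p was 0.0565 to 0.137. At 0 h and 6 h the Angptl4 differences of 0.48 ± 0.30 and -0.48 ± 0.29 were not called.

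The carrier, synthetase and acyltransferase genes were not called between the cultures. Fabp4 differed by -0.47 ± 0.39, -0.32 ± 0.38 and -0.67 ± 0.38 on the log2 scale at 0, 6 and 24 h. For Acsl1 the differences were positive, at 0.26 ± 0.14, 0.26 ± 0.13 and 0.17 ± 0.14. In a fit blocked by library number, which the pairing of libraries allows at 0 h, Acsl1 was called higher in co-culture at 0 h (0.26 ± 0.07, edgeR adjusted p 0.00992; 19.5% of all genes called in that fit). Acsl3 differed by -0.26 ± 0.19, 0.05 ± 0.20 and -0.07 ± 0.20, and Dgat1 by -0.22 ± 0.12, -0.16 ± 0.12 and -0.16 ± 0.12. Dgat2 had at most 1.28 CPM in any macrophage library, and its differences had standard errors of 0.64 to 0.68.

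Genes high in the tumour line were also counted in co-cultured macrophages. The 6 genes of a fibroblast list, which tumour cells held at 13725 to 22902 CPM in sum, reached 0.761 to 21.4 CPM in mono-culture macrophages and 168 to 833 CPM in those of co-culture. A list of glioma and glial progenitor genes, at 565 to 1161 CPM in sum in tumour cells, overlapped between the cultures, at 39.3 to 128 CPM and 101 to 168 CPM. That sum includes Nes and Fabp7, with higher medians in macrophages (44.5 and 14.8 CPM) than in tumour cells (29.5 and 0.22 CPM). Of the list genes, 4 had a mean of at least 10 CPM in mono-culture tumour cells at 0 h: Sox2, Pdgfra, Nes and Cspg4. Their levels were set against that mean. Nes is thus among the 4, and Cspg4 held 10.4 to 89.3 CPM over the 18 macrophage libraries. The median of the 4 was 0.66% to 2.85% in mono-culture macrophage libraries and 4.76% to 8.62% in co-culture ones. Whether this RNA came from tumour cells, and its part in the culture differences, was not tested. The summed macrophage markers were higher in co-culture, as given above, and 1 of them, Lyz2, alone held 6339 to 12117 CPM over the 18 macrophage libraries.

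**Figure D2:**
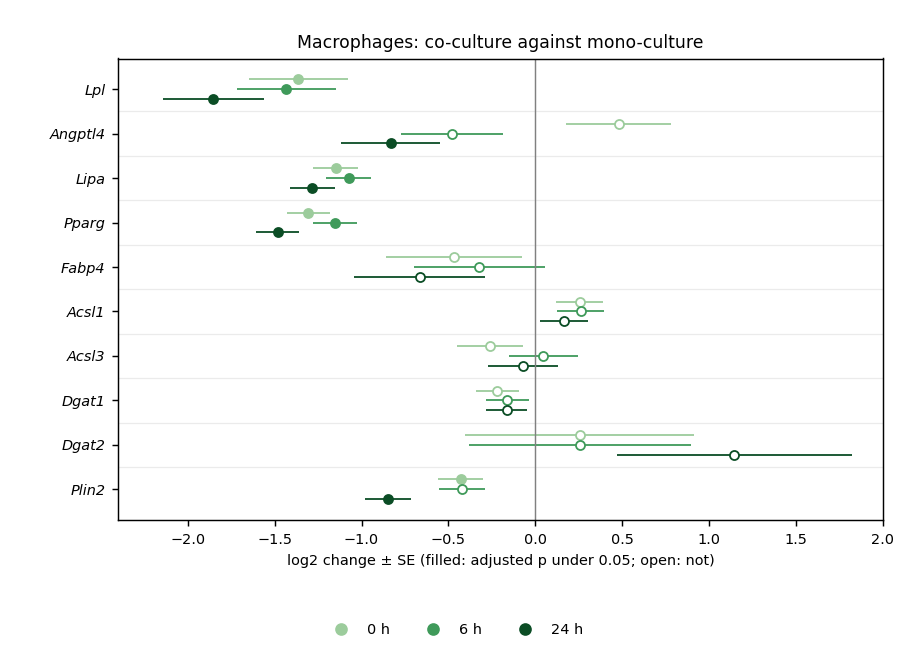
Log2 difference of co-cultured from mono-cultured macrophages (horizontal axis, point ± SE, 3 libraries against 3) for each gene at 0, 6 and 24 h, from light to dark. Filled points passed an adjusted p of 0.05 and open points did not. Lpl, Lipa and Pparg are filled at all 3 times, between -1.07 and -1.85, and Acsl1, Acsl3 and Dgat1 lie between -0.26 and 0.26.

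After myelin, Acsl3 fell and Plin2 rose in macrophages by 24 h in both cultures, and the call of Acsl3 held in every alternative run while that of Plin2 in co-culture did not. In mono-culture 1 of the 10 genes was called at 6 h, where 2.15% of all tested genes were called, and 3 at 24 h, where 15.2% were. In co-culture 0 were called at 6 h in edgeR and 0 in DESeq2, where 0.213% of all genes were called in edgeR. At an unadjusted p under 0.05 in edgeR there were then 1 of the 10 and 1575 of all 13165 tested genes. At 24 h in co-culture 5 were called, where 11.4% of all genes were. Blocking on the library number raised the count in mono-culture at 24 h from 3 to 7 (22.2% of all genes in that fit) and that in co-culture at 6 h from 0 to 1 (1.79%).

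Lpl stood lower at 24 h than at 0 h in every same-numbered pair of libraries. In mono-culture the log2 change was -0.31 ± 0.28 at 6 h and -0.55 ± 0.28 at 24 h (edgeR adjusted p 0.208), with no overlap between the libraries of 0 h and 24 h. It was called at 24 h with the block (-0.55 ± 0.13, adjusted p 0.00615) and in libraries 2 and 3 alone (-0.57, adjusted p 0.00516). In co-culture Lpl was -0.38 ± 0.28 at 6 h and fell by 24 h (-1.04 ± 0.28, edgeR adjusted p 0.0279). That call was lost without any 1 of 5 of the 6 libraries (adjusted p 0.0545 to 0.124), all except 0 h library 1.

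Angptl4 rose in mono-culture, from 4.47, 4.10 and 4.96 CPM at 0 h over 6.09, 8.50 and 7.37 CPM at 6 h to 6.22, 9.09 and 19.3 CPM at 24 h. Neither later group overlapped that of 0 h, and library 3 stood well above the other libraries at 24 h. The log2 change was 0.71 ± 0.30 at 6 h (edgeR adjusted p 0.251, not called) and 1.36 ± 0.30 at 24 h (adjusted p 0.00719). Without library 3 of 24 h the change was 0.76 with an adjusted p of 0.0283, and in a fit of the compared groups alone the adjusted p was 0.0718. In co-culture Angptl4 had 6.51, 6.67 and 5.68 CPM at 0 h, 4.80, 5.56 and 5.50 CPM at 6 h and 6.59, 5.56 and 7.37 CPM at 24 h, with a change of 0.05 ± 0.29 at 24 h. The difference between the cultures in the 24 h change was -1.31 ± 0.42 (edgeR adjusted p 0.435) and was not called.

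Lipa and Pparg were not called after myelin in either culture. At 24 h Lipa changed by -0.05 ± 0.13 in mono-culture and -0.19 ± 0.13 in co-culture on the log2 scale. The values of Pparg were 0.27 ± 0.12 (edgeR adjusted p 0.152) and 0.09 ± 0.13. The lysosomal lipase and the receptor thus differed between cultures and were not called over time.

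Fabp4, the fatty acid carrier, had 59.6, 29.8 and 54.7 CPM in mono-culture at 0 h, 79.0, 42.8 and 107 CPM at 6 h and 108, 71.9 and 111 CPM at 24 h. In co-culture it had 32.5, 21.3 and 49.4 CPM, then 63.6, 46.3 and 72.8 CPM, then 43.5, 51.3 and 88.2 CPM. Every library of 6 h and 24 h was above the 0 h library of its number, in both cultures. The log2 change at 24 h was 1.03 ± 0.38 in mono-culture (edgeR adjusted p 0.0869) and 0.83 ± 0.39 in co-culture (adjusted p 0.181), neither called. With the block both were called, at 1.05 ± 0.20 (edgeR adjusted p 0.00215) and 0.87 ± 0.20 (adjusted p 0.00946; 19.7% of all genes in that fit). The block also called Fabp4 in co-culture at 6 h (0.87 ± 0.20, adjusted p 0.0487). DESeq2 called it in mono-culture at 24 h (1.02, adjusted p 0.0327).

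Acsl3, a synthetase of the endoplasmic reticulum and of nascent droplets, fell in both cultures. Mono-culture libraries went from 62.5, 53.1 and 66.7 CPM at 0 h to 30.4, 28.8 and 34.8 CPM at 6 h and 31.5, 20.8 and 19.7 CPM at 24 h. Those of co-culture went from 52.6, 45.4 and 54.1 CPM to 22.8, 37.1 and 36.9 CPM and then to 26.4, 18.6 and 23.4 CPM. No library of a later time reached the lowest of 0 h in its culture. In mono-culture the log2 change was -0.95 ± 0.20 at 6 h (edgeR adjusted p 0.0223) and -1.35 ± 0.20 at 24 h (adjusted p 0.000568). In co-culture it was -0.64 ± 0.19 at 6 h (adjusted p 0.167, not called) and -1.15 ± 0.20 at 24 h (adjusted p 0.00249). The 6 h call in mono-culture was lost without library 2 or 3 of 0 h or of 6 h (adjusted p 0.0501 to 0.112). The protein-coding gene Utp14b overlaps Acsl3 on the same strand, so reads may be shared between them.

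Acsl1, the other synthetase, had its highest group means at 6 h and its lowest at 24 h. Mono-culture libraries held 65.4, 82.7 and 73.8 CPM at 0 h, 65.4, 97.6 and 84.4 CPM at 6 h and 53.1, 64.2 and 57.5 CPM at 24 h. Co-culture libraries held 79.7, 98.0 and 87.7 CPM, then 89.95, 107 and 100.4 CPM, then 58.2, 72.9 and 65.0 CPM. At 24 h no library of either culture reached the lowest 0 h library of its own culture. The change at 24 h was -0.35 ± 0.14 in mono-culture (edgeR adjusted p 0.101) and -0.44 ± 0.14 in co-culture (adjusted p 0.0479, called). With the block the mono-culture change was called too (-0.34 ± 0.07, adjusted p 0.00173). The co-culture call was lost without any 1 of 5 of the 6 libraries, all except 0 h library 1 (adjusted p 0.0559 to 0.193).

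Dgat1, an acyltransferase of the last step of triglyceride synthesis, had higher group means at 24 h than at 0 h in both cultures. In mono-culture it had 12.6, 11.1 and 9.99 CPM at 0 h and 14.9, 13.6 and 14.5 CPM at 24 h, and in co-culture 9.45, 10.9 and 8.36 CPM and 12.1, 13.1 and 13.2 CPM. The 24 h libraries were above those of 0 h in each culture. Its log2 change was 0.36 ± 0.12 (edgeR adjusted p 0.054; 0.37 ± 0.12 with the block, adjusted p 0.0416) and 0.42 ± 0.12 (adjusted p 0.0365, called). Leaving out any 1 library except 0 h library 2 took the co-culture adjusted p to between 0.0543 and 0.164, and libraries 2 and 3 alone to 0.0719. Dgat2, the other such enzyme, had 0.2 to 1.28 CPM in macrophages apart from a 0 in mono-culture library 1 of 6 h, and its change was not called.

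Plin2 rose late. In mono-culture it had 750, 670 and 585 CPM at 0 h and 771, 667 and 782 CPM at 6 h, which overlapped, and 1073, 1086 and 1511 CPM at 24 h, above both. In co-culture the 3 groups ran from 454 to 527 CPM at 0 h, 518 to 594 CPM at 6 h and 614 to 722 CPM at 24 h. The log2 change at 6 h was 0.15 ± 0.13 in mono-culture and 0.16 ± 0.13 in co-culture, not called. At 24 h it was 0.87 ± 0.13 in mono-culture (edgeR adjusted p 0.000598) and 0.45 ± 0.13 in co-culture (adjusted p 0.0346). The co-culture call was lost without any 1 of 5 of the 6 libraries, all except 24 h library 1 (adjusted p 0.0529 to 0.144). The cultures differed in this change by -0.42 ± 0.18 (edgeR adjusted p 0.639), which was not called. Over the 10 genes 0 were called for a difference of cultures in the 24 h change in edgeR and 0 in DESeq2. Of all genes 0.0152% were called in edgeR. At an unadjusted p under 0.05 in edgeR there were 2 of the 10 and 981 of all 13165 tested genes.

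**Figure D3:**
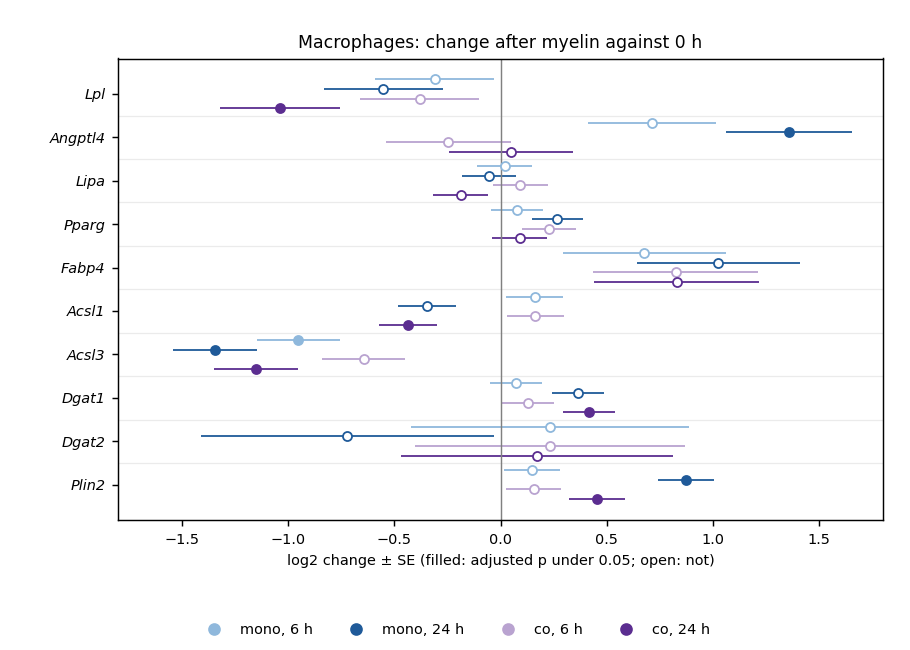
Log2 change from 0 h in macrophages (horizontal axis, point ± SE, 3 libraries against 3) at 6 h and 24 h in mono-culture (light and dark blue) and co-culture (light and dark purple). Filled points passed an adjusted p of 0.05 and open points did not. Acsl3 lies between -0.64 and -1.35 and Plin2 reaches 0.87 and 0.45 at 24 h, while Lipa and Pparg stay between -0.19 and 0.27.

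In all, 6 lists of neighbouring genes of the pathway, 62 genes of which 59 were in the table and 41 were tested in macrophages, gave the wider view. At 24 h in mono-culture 7 of the 41 rose and 5 fell, against 15.2% of all tested genes called, with a median log2 change of 0.04 over the 41. The risers included the triglyceride lipase Pnpla2 (0.57 ± 0.16, edgeR adjusted p 0.0289), the droplet protein Plin3 (0.56 ± 0.14, adjusted p 0.0144), the receptor Ppard (0.64 ± 0.21, adjusted p 0.0467) and the PPAR target Cpt1a (0.49 ± 0.13, adjusted p 0.0173), the mitochondrial carnitine transferase. Of the 7 tested PPAR partners and targets 4 rose, Ppard, Cpt1a, Acadvl and Slc25a20, and Lpin2 of the glycerolipid list rose by 0.42 ± 0.11 (adjusted p 0.0214). The list members that fell were Fabp7, another carrier (-2.00 ± 0.24, adjusted p 9.36e-05), Lipe, Agpat4, Agpat5 and Dbi. In co-culture at 24 h 1 rose, Fabp3 (1.29 ± 0.31, adjusted p 0.0137), and 4 fell, Fabp7 (-1.69 ± 0.23, adjusted p 0.000488), Agpat4, Agpat5 and Dbi. These 5 of 41 are close to the 11.4% of all tested genes called there. At 6 h 0 of the 41 were called in either culture in edgeR, and DESeq2 called 1 and 0. At an unadjusted p under 0.05 in edgeR there were 6 in mono-culture and 4 in co-culture. Of all 13165 tested genes 2152 and 1575 passed that unadjusted threshold.

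Between the cultures, 8 of the 41 were lower and 1 higher in co-culture at 0 h, 4 lower at 6 h and 9 lower at 24 h. Cd36, the fatty acid scavenger receptor and a Pparg target, averaged 2617, 2645 and 2638 CPM in mono-culture at 0, 6 and 24 h and 1602, 1723 and 1333 CPM in co-culture, and was called lower at each time. Its log2 difference at 24 h was -0.98 ± 0.17 (edgeR adjusted p 0.000594). Pnpla2 and Slc25a20, the mitochondrial acylcarnitine carrier, were also lower at all 3 times, with -1.12 ± 0.17 (adjusted p 0.000175) and -0.43 ± 0.08 (adjusted p 0.000805) at 24 h. Plin3, lower by -0.80 ± 0.14 at 24 h (adjusted p 0.000587), was not called at 0 h or 6 h. Slc25a20 was named after its values were seen in this comparison. Over all tested genes 6.02%, 4.12% and 13.7% were lower at the 3 times, and the median log2 difference of the 41 genes was -0.01, -0.05 and -0.12. Further list members with a mean of at least 100 CPM in some group were Sel1l, Mgll, Abhd5, Gpam, Gpat4, Lpin2, Acsl4, Acsl5, Fabp5, Slc27a1, Dbi, Rxra, Cpt1a and Acadvl. Of these Abhd5, a coactivator of Pnpla2, was called lower at 0 h and 24 h, and Sel1l, which Lpl needs to leave the endoplasmic reticulum, at 0 h.

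The member genes varied together in 2 ways over the 18 macrophage libraries. Log2 CPM of Lipa and Pparg had a Pearson correlation of 0.97, Lpl and Lipa of 0.91 and Lpl and Pparg of 0.84. Plin2 followed Dgat1 (0.81) and Pparg (0.73), and ran against Acsl1 (-0.72). These correlations describe libraries that share groups and library numbers. Among 8590 genes with a mean of at least 10 CPM, those most like Plin2 were Hsd17b11 (0.96), whose product is a droplet-associated dehydrogenase, Map1lc3b (0.96), whose product coats autophagosomes, and Pafah2 (0.96). Those most like Lpl were Skap2, Inpp5f and Marchf6, each at 0.96. For Angptl4 the highest were Cox7a2l (0.79), Eif2a (0.77) and Fam53b (0.75).

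Tumour cells had none of the 10 genes called after myelin or between cultures in edgeR. Of the 10, 0 were called in each of the 8 tumour cell comparisons, where 0.00735% of all genes were called at 6 h and 10.5% at 24 h in mono-culture, 0.0147% and 0.787% in co-culture, 0%, 0% and 0.0809% between cultures at 0, 6 and 24 h, and 0% for the difference of cultures. At an unadjusted p under 0.05 there were 1 and 2 genes in mono-culture, 1 and 1 in co-culture, 2, 0 and 0 between cultures and 0 for the difference of cultures. Of all 13603 tested genes 816 and 3677, 817 and 1945, 698, 543 and 1804, and 496 passed that unadjusted threshold, in the same order. DESeq2 called 1 gene, Fabp4 at 24 h in mono-culture (4.07, adjusted p 0.0387), and 0 in the other 7 comparisons. In fits blocked by library number 3 genes were called in mono-culture at 24 h (27.9% of all genes in that fit) and 2 between the cultures at 0 h (1.19%).

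Lpl in tumour cells differed by library number. Mono-culture libraries 1, 2 and 3 held 0, 15.3 and 19.4 CPM at 0 h, 0.13, 71.6 and 23.0 CPM at 6 h and 0.24, 38.1 and 57.1 CPM at 24 h. Co-culture libraries held 1.38, 95.7 and 51.2 CPM, then 1.41, 44.9 and 44.5 CPM, then 1.39, 34.5 and 28.7 CPM. Library 1 was lowest in every group, at most 0.0148% of the mean of mono-culture macrophages at 0 h, and libraries 2 and 3 were at 0.16% to 0.999% of it. The 12 macrophage markers moved with it. Their summed level was 12.3 to 23.3 CPM in the 6 libraries numbered 1 and 264 to 1755 CPM in the 12 others. Libraries 2 and 3 held 264 to 352 CPM of these markers in mono-culture at 0 h. They held 1399 to 1755 CPM in mono-culture at 24 h and 1029 to 1558 CPM in co-culture at 0 h. The part of macrophage RNA in the Lpl values was not tested. With the block, Lpl was called higher at 24 h in mono-culture (1.44 ± 0.45, edgeR adjusted p 0.0282) and in co-culture at 0 h (2.06 ± 0.45, adjusted p 0.0449), against 1.45 ± 1.73 and 2.08 ± 1.75 without it (adjusted p 0.624 and 0.865).

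Fabp4 in tumour cells had this division at 24 h in mono-culture and at all 3 times in co-culture. In mono-culture the 3 libraries held 0.2, 0.17 and 0.083 CPM at 0 h, 0.4, 1.57 and 0.42 CPM at 6 h and 0.081, 3.17 and 4.20 CPM at 24 h. In co-culture they held 0.43, 2.60 and 4.33 CPM at 0 h, 0, 4.22 and 5.02 CPM at 6 h and 0.16, 4.60 and 4.85 CPM at 24 h. Library 1 stayed at or under 0.43 CPM in all 6 groups. With the block Fabp4 was called at 24 h in mono-culture (3.96 ± 0.91, edgeR adjusted p 0.00564) and in co-culture at 0 h (4.04 ± 0.91, adjusted p 0.0485). Both calls are against mono-culture at 0 h, where the libraries held 2, 2 and 1 counts, so their sizes rest on few counts. In libraries 2 and 3 the macrophage markers were also higher in both comparisons, as given above for Lpl. Whether macrophage RNA has a part in these calls was not tested.

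**Figure D4:**
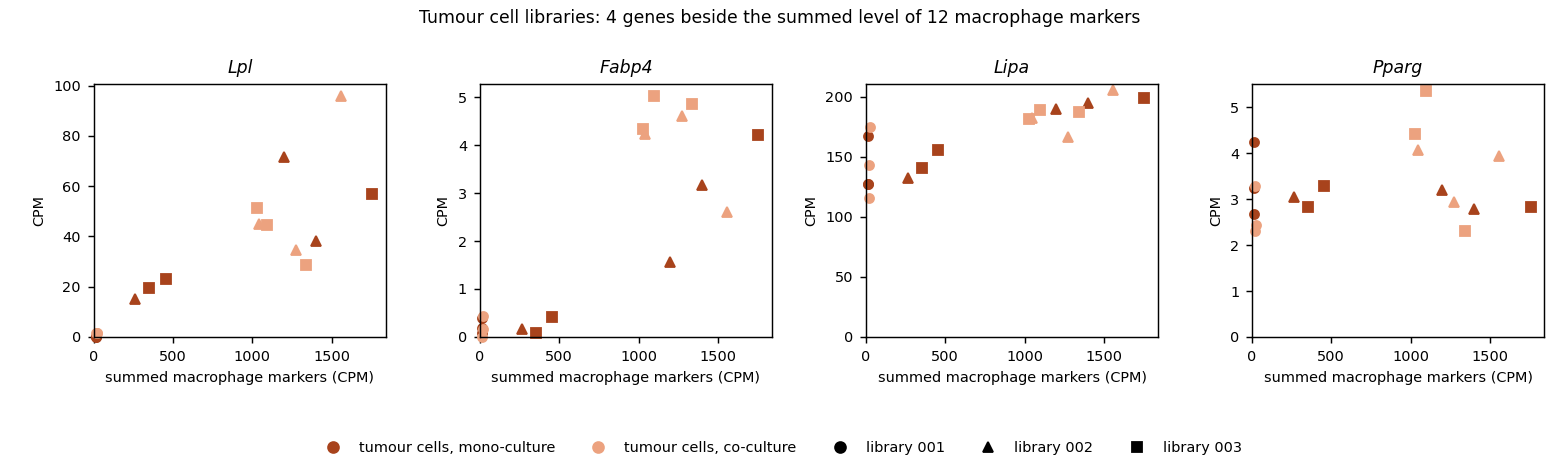
Level of Lpl, Fabp4, Lipa and Pparg (vertical axes, CPM from 0) in each of the 18 tumour cell libraries against the summed level of 12 macrophage markers in the same library (horizontal axes, CPM from 0). Symbols give the library number and colours the culture. The 6 libraries numbered 1 lie at 12.3 to 23.3 CPM of markers with Lpl at most 1.41 CPM, and Lipa and Pparg in them overlap the other libraries.

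Lipa in tumour cells ran from 116 to 206 CPM over the 18 libraries, and at 24 h in mono-culture it stood at 168, 195 and 199 CPM against 128, 132 and 141 CPM at 0 h, with no overlap. The log2 change was 0.49 ± 0.18 (edgeR adjusted p 0.0892), and 0.48 ± 0.12 with the block (adjusted p 0.0089, called). It was called in libraries 2 and 3 alone (0.52, edgeR adjusted p 0.000272). In libraries 2 and 3 the 12 macrophage markers summed to 264 to 352 CPM at 0 h and 1399 to 1755 CPM at 24 h. In libraries numbered 1 the markers summed to 12.3 and 14.7 CPM, and Lipa went from 128 to 168 CPM. The part of macrophage RNA in the Lipa change was not tested.

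Plin2 in tumour cells ran from 159 to 266 CPM, with changes at 24 h of -0.15 ± 0.16 in mono-culture and -0.19 ± 0.16 in co-culture, not called. Acsl1 had 34.4, 34.8 and 35.6 CPM at 0 h in mono-culture, 37.1, 46.1 and 50.4 CPM at 6 h and 28.4, 31.9 and 30.3 CPM at 24 h. Its 6 h libraries were above the others in mono-culture, with a log2 change of 0.35 ± 0.14 (edgeR adjusted p 0.676). In libraries 2 and 3 alone this Acsl1 change was called (0.46, adjusted p 0.00429), as was that in co-culture (0.40, adjusted p 0.0173).

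Acsl3 was highest in tumour cell library 1 in all 6 groups, and Dgat2 in 5. Acsl3 held 176, 90.6 and 79.9 CPM at 0 h in mono-culture, and over all groups 119 to 196 CPM in libraries 1 and 68.3 to 109 CPM in the others. Its changes at 24 h were 0.11 ± 0.42 in mono-culture and -0.07 ± 0.42 in co-culture. Dgat2 ran from 4.34 to 11.7 CPM, Dgat1 from 14.0 to 22.0 CPM and Pparg from 2.31 to 5.35 CPM, and none of them was called in edgeR with all 18 libraries. In libraries 2 and 3 alone Acsl3 was called at 24 h in mono-culture (0.25, adjusted p 0.0454) and Pparg at 24 h in co-culture (-0.65, adjusted p 0.0491).

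Angptl4 in tumour cells ran from 2.68 to 23.1 CPM, with library 1 the lowest of 5 of the 6 groups. In mono-culture its libraries held 2.96, 14.8 and 15.3 CPM at 0 h and 2.68, 9.12 and 10.1 CPM at 24 h, and in co-culture 4.58, 15.1 and 12.8 CPM and 5.95, 20.2 and 23.1 CPM. The log2 change at 24 h was -0.60 ± 0.64 in mono-culture and 0.60 ± 0.63 in co-culture. In libraries 2 and 3 alone both were called, at -0.66 (edgeR adjusted p 0.0042) and 0.64 (adjusted p 0.00451), as was the difference between the cultures in this change (1.29, adjusted p 0.00375). With all 18 libraries that difference was 1.20 ± 0.90 (adjusted p 1).

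Of 45 pathway genes tested in tumour cells, 1 rose and 6 fell at 24 h in mono-culture, where 10.5% of all tested genes were called. Slc25a20 rose by 0.39 ± 0.09 (edgeR adjusted p 0.0145). Acsbg1, an acyl-CoA synthetase, changed by -2.73 ± 0.66 (adjusted p 0.0183), Lpin3, a phosphatidate phosphatase, by -1.22 ± 0.33 (adjusted p 0.0298) and Lipg, endothelial lipase, by -1.10 ± 0.29 (adjusted p 0.0262). The remaining ones that fell were Gpat4, Acsl5 and Ppard. In the other 7 tumour cell comparisons 0 were called in edgeR, and DESeq2 called 2 in each of 2 of them. At an unadjusted p under 0.05 in edgeR there were 0 to 8 of the 45, against 496 to 1945 of all 13603 tested genes.

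Set directly against each other in mono-culture at 0 h, macrophages and tumour cells differed in all 10 genes, where 70% of all tested genes were called. Macrophages had 6 of them higher (32.4% of all genes): Lpl by a log2 difference of 9.69 ± 1.92 (edgeR adjusted p 7.92e-05), Fabp4 by 8.31 ± 1.15 (adjusted p 4.64e-07), Lipa by 4.43 ± 0.19 (adjusted p 1.37e-17), Pparg by 4.20 ± 0.19, Plin2 by 1.63 ± 0.16 and Acsl1 by 1.15 ± 0.16. The other 4 were lower (37.7% of all genes): Dgat2 by -3.35 ± 0.46 (adjusted p 2.12e-07), Angptl4 by -1.23 ± 0.55 (adjusted p 0.0465), Acsl3 by -0.87 ± 0.34 (adjusted p 0.0257) and Dgat1 by -0.45 ± 0.14 (adjusted p 0.00726). In this tumour cell group Lpl had 0, 185 and 234 counts in libraries 1, 2 and 3, and Fabp4 had 2, 2 and 1. The size of the Fabp4 difference thus rests on few tumour cell counts, and that of Lpl on tumour cell libraries 2 and 3. In these 2 libraries the macrophage markers summed to 264 to 352 CPM, against 12.3 CPM in library 1. The part of macrophage RNA in the tumour cell level of Lpl was not tested. Without tumour cell library 1 the Acsl3 difference was -0.44 (adjusted p 0.28), and without macrophage library 1 or 2 its adjusted p was 0.0658 or 0.105. The Angptl4 call was lost without any 1 of 5 of the 6 libraries, all except tumour cell library 1 (adjusted p 0.0881 to 0.203), and that of Dgat1 without macrophage library 3 (-0.31, adjusted p 0.0929). With no low-count filter the adjusted p was 0.144 for Angptl4, 0.0975 for Acsl3 and 0.0707 for Dgat1. For Angptl4 it was also 0.0716 in the compared groups alone and 0.05, just over the threshold, with CT010467.1 and Lars2 left out.

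The orders of the groups differed between the genes. On 1 scale for all libraries, Lpl ran from mono-culture macrophages (9186 ± 2013 CPM at 0 h) over co-cultured ones (1919 ± 363 CPM at 24 h) to tumour cells (11.1 ± 9.80 CPM in mono-culture at 0 h). Neighbouring times within a culture overlapped, whereas the 3 blocks did not overlap each other. Lipa and Pparg had the same 3 blocks. For Plin2 only mono-culture at 24 h (1254 CPM) stood clear of the next macrophage group (753 CPM, co-culture at 24 h). Acsl3, Dgat1 and Dgat2 had all 6 tumour cell groups above all 6 macrophage groups by their means, and the lowest tumour cell group overlapped the highest macrophage group for Acsl3 and Dgat1 but not for Dgat2.

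Plin2 was the 1 gene of the 10 whose 24 h change in mono-culture was called different between the kinds of cell, where 3.9% of all genes were. It rose in macrophages and stood at 204, 233 and 235 CPM at 0 h and 165, 210 and 229 CPM at 24 h in tumour cells. The difference of the log2 changes was 1.07 ± 0.22 (edgeR adjusted p 0.00457), and its adjusted p was 0.0585 in a fit of the 4 groups alone. With the block 6 genes were called (13% of all genes in that fit), Plin2 and Acsl3 (-1.47 ± 0.23, adjusted p 0.000125), Lpl (-1.96 ± 0.46), Angptl4 (1.94 ± 0.52), Lipa (-0.51 ± 0.17) and Fabp4 (-2.96 ± 0.87). Macrophage markers were higher in tumour cell libraries 2 and 3 than in library 1, and rose in them from 0 h to 24 h, as given above. The part of macrophage RNA in these differences was not tested.

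The genes lie on 9 chromosomes of mm10. Lpl is at chr8:68880491-68907448 and Acsl1 at chr8:46471037-46536051, both on the plus strand. Angptl4 is at chr17:33773750-33781830, Lipa at chr19:34492318-34527474, Fabp4 at chr3:10204088-10208576, Dgat1 at chr15:76502015-76511953, Dgat2 at chr7:99153658-99182719 and Plin2 at chr4:86648386-86670060, all on the minus strand. Pparg, at chr6:115360951-115490399, and Acsl3, at chr1:78657825-78707743, are on the plus strand. The counts cover whole genes and carry no exon or isoform. Acsl1 is overlapped by Gm45244 on the other strand.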

How the data were processed

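Sorted macrophages or tumour cells gave a few nanograms of RNA, reverse transcribed from an oligo-dT primer, per the labels' protocols. The authors deposited whole-number gene counts for 29883 genes in 36 libraries, built on mm10 per the submitters' processing notes. The sources used here name no aligner, counting tool or strand setting. Gene positions were those of GENCODE M21 for 28677 of the 28957 genes named there.

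Groups and library numbers came from the sample titles. The 18 libraries of each cell type were fitted with edgeR 4.0.16 (limma 3.58.1, R 4.3.3): TMM normalisation, filterByExpr, robust quasi-likelihood dispersions, no block. The filter kept 13165 genes (macrophages) and 13603 genes (tumour cells). Comparisons between cell types used 1 fit of all 36 libraries and 14776 genes. P-values were adjusted by Benjamini-Hochberg over all genes tested, with a threshold of 0.05. A standard error is the absolute change over the square root of F. CPM were normalised within each cell type, except levels said to be on 1 scale and levels per kilobase, which use 36 libraries and the principal transcript's length. The scripts were tested on simulated counts.

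Whether library numbers pair the libraries was checked by the correlation of same-numbered residuals, since the labels do not say so. All 3 pairs were above 0.1 in every tumour cell comparison (lowest 0.325) and in macrophages against 0 h (lowest 0.157) and between cultures at 0 h (lowest 0.288), but not between cultures at 6 h (-0.02) or 24 h (0.066), nor in the difference of cultures. Alternatives were RLE size factors, DESeq2 1.42.0, non-robust dispersions, no low-count filter, the compared groups alone, the block, libraries 2 and 3 alone, CT010467.1 and Lars2 left out, and each library left out in turn.

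The genes, lists and motifs were chosen with earlier results of these data known. All 10 genes are described, as are list members by their counts. Those named are called members with the largest changes, members with a mean of at least 100 CPM in a group, and further ones said to be chosen later. Gpihbp1, Apoc2 and Cidec were not matched, and Ldaf1 was found as Tmem159.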

Additional observations from a re-analysis of the deposited data

Results flagged for a closer look

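Plin2 differed between the kinds of cell in its change after myelin. From 0 h to 24 h in mono-culture the log2 change in macrophages exceeded that in tumour cells by 1.07 ± 0.22 (3 libraries a group, edgeR adjusted p 0.00457 for the difference itself). In a fit of the compared groups alone the difference was 0.98 (edgeR adjusted p 0.0585) and was not called. Plin2 was higher at 24 h in 3 of 3 same-numbered macrophage pairs and in 0 of 3 tumour cell pairs.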

How the results depend on the processing

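The number of the 10 genes called is given here where it moved by over 1.5 times, and no called change reversed in any alternative. With the library number as a replicate block it was 7 (from 3) in mono-culture macrophages at 24 h, 1 (from 0) in co-culture at 6 h, 5 (from 3) between the macrophage cultures at 6 h (15.6% of all genes), where Acsl1 and Plin2 joined, 3 (from 0) in mono-culture tumour cells at 24 h, 2 (from 0) between tumour cell cultures at 0 h and 6 (from 1) for the difference between cell types; between the macrophage cultures at 24 h the block added Fabp4. The numbers are not shown to pair libraries between macrophage cultures at 6 h and 24 h. Blocking took away no call. In libraries 2 and 3 alone the count was 5 in mono-culture macrophages at 24 h (17.4% of all genes called in that fit) and 5 for the difference between cell types (13.1%). In tumour cells it was then 3 and 4 in mono-culture at 6 h and 24 h (6.18% and 35.9% of all genes), 1 and 2 in co-culture (2.98% and 22.6%), 2, 1 and 1 between cultures at 0, 6 and 24 h (15.8%, 9.16% and 24.1%), and 3 for the difference of cultures (4.45%), each from 0. DESeq2 gave 1 in mono-culture tumour cells at 24 h and 2 for the difference between cell types. The compared groups alone gave 3 (from 5) in co-cultured macrophages at 24 h, 1 in mono-culture tumour cells at 24 h and 0 for the difference between cell types. Without a low-count filter 2 were called in co-cultured macrophages at 24 h. The cause was not tested. Leaving out single libraries gave 0 to 1 in mono-culture macrophages at 6 h, 3 to 5 at 24 h, 1 to 3 in co-culture at 24 h, 3 to 4 between macrophage cultures at 6 h and 1 to 2 for the difference between cell types. Shares of all genes called are not given for DESeq2, the compared groups alone, the unfiltered fit or the fits with 1 library left out. Their counts therefore cannot be set against calls over all genes. RLE size factors and non-robust dispersions changed no call of the 10 genes. Dgat2 in macrophages, at most 1.28 CPM in any library, rests on few counts. So does Fabp4 in tumour cell libraries numbered 1 and in all 3 tumour cell libraries of mono-culture at 0 h. Small changes in Dgat2 and Fabp4 there could not be resolved.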
